A study of Drosophila melanogaster with 2 samples.

Results

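The genes described here are the 9 core genes of the Hedgehog signalling pathway in the fruit fly Drosophila melanogaster, named by symbol and taken with 10000 bp on either side. They are hh, ptc, ihog, boi, smo, fu, Su(fu), ci and rdx, and all 9 were found among the 13968 protein-coding genes of the dm6 annotation. The protein mapped around them was Kahuli (Kah, gene CG17181), which carries zinc fingers and belongs to the Snail family. ChIP-seq was used, an assay in which DNA held by a protein is pulled down with an antibody and read by sequencing. The material was whole embryos, 0 to 16 h old and of both sexes, from a transgenic line that carries Kah fused at its C terminus to green fluorescent protein (GFP). All libraries came from this line, and 1 group with 2 biological replicates made up the design, so there was no second genotype, age or treatment to compare. The embryos held every tissue at once, and the tagged protein came from a transgene. A signal near a gene therefore gives neither the cells in which Kah was bound nor a change in that gene's expression, which was not measured. The labels give the assay as transcription factor ChIP-seq against kah, while their free-text description names an input control. The lists were taken to hold peaks of the ChIP libraries.

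The Hedgehog pathway carries a secreted signal between cells. Without ligand, the receptor Patched holds the membrane protein Smoothened inactive, and the transcription factor Cubitus interruptus (Ci) is cut to a repressor. When Hedgehog binds Patched, Smoothened is released and full-length Ci turns on target genes, among them patched itself. In the fly embryo the pathway is known for maintaining the pattern of each segment across the borders of its compartments. Snail-family proteins bind E-box words built around CAGGTG.

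For each replicate there was a list of 30000 candidates. A list of the same length, called on both replicates together, is named the pooled list here. The 4105 candidates of highest signal in it are the peaks the authors kept by the irreproducible discovery rate (IDR), which asks how alike replicates rank their peaks. Signal is the peak caller's own value for each peak, and its scaling and the read depth behind it are unknown. The summit is the base at which a peak is highest. Within the 322496 bp around the 9 genes lay 166 pooled candidates, of which 22 were IDR peaks. That is 13.3%, against 13.7% of all candidates, a share near that of the whole list.

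Sequences at the summits that the results below return to are shown here, from the dm6 plus strand. The window inside mbm, upstream of smo, at chr2L:273060-273180 is shown for its CAGGTG words. The next set holds 3 of the rdx summits, the strongest at chr3R:13999673-13999793, the next at chr3R:14012694-14012814 and the summit just upstream of the annotated main start at chr3R:13983627-13983747. The stretches of 30 bases are the 2 ACAAGT words beside the ci summit, at chr4:56381-56410 and chr4:56439-56468, and the Ci binding word at a weaker summit in smo, at chr2L:277951-277980. Capitals mark the E-box word CAGGTG, its overlapping form ACAGGT, the related word ACAAGT, the GAGA factor's word GAGAGA and the Ci word GACCACCCA, each on either strand.
mbm summit upstream of smo: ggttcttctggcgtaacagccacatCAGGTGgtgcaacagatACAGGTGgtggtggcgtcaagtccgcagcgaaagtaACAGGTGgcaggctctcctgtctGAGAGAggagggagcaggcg
rdx strongest summit: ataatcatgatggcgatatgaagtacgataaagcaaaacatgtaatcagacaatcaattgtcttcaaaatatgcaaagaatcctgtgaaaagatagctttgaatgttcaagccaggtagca
rdx next strongest summit: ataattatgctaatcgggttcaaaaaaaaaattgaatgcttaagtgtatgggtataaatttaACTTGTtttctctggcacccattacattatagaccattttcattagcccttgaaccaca
rdx summit upstream of the main start: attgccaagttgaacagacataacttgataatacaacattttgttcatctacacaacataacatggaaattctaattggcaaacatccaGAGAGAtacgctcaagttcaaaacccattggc
ci first word: ccaaacacagatACTTGTacagattctaca
ci second word: tacaatacagtaACAAGTgcattggtgatt
smo weaker summit: cttatgcctgTGGGTGGTCgcagacgcatc
The mbm window holds CAGGTG 3 times. The strongest rdx window holds none of the marked words.

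IDR peaks lay within 10000 bp of 6 of the 9 genes, against 57.9% of all protein-coding genes. They were ptc, ihog, boi, smo, ci and rdx, while hh, fu and Su(fu) had none. At the start site itself, 4 of 9 genes (ptc, ihog, ci and rdx) had an IDR summit within 500 bp, against 17.0% of all protein-coding genes. A candidate of any strength lay that close in 8 of 9, all but Su(fu), against 53.4% of all. Among genes with such a candidate it was an IDR peak in 4 of 8, against 31.8%. Inside the gene itself, ihog, boi, ci and rdx had IDR summits, 4 of 9 against 13.0% of all genes. A longer gene has more room for a summit, and boi and rdx are 25877 and 64997 bp long. The share over genes of like length was not taken, so the 2 shares are not alike in length.

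The count per gene was uneven. The region of rdx held 8 IDR summits, ptc 5, smo 4, ihog 3, and boi and ci 1 each. The median was 1.00 both over the 9 genes and over all protein-coding genes, while the mean was 2.44 over the 9 and 1.24 over all. Regions were longer here, with a median of 29.3 kb against 22.2 kb, since a longer gene has a longer region. Per 10 kb the median was 0.341 IDR summits over the 9 genes and 0.409 over all genes. Summed over the regions the order was the other way, with 0.682 IDR summits per 10 kb in the 9 regions and 0.307 over the genome, which includes sequence far from genes. For all candidates the sums were 5.15 and 2.24 per 10 kb. The highest pooled signal per region also sat near that of other genes, with a median of 203 over the 9 genes and 204 over all.

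**Figure D1:**
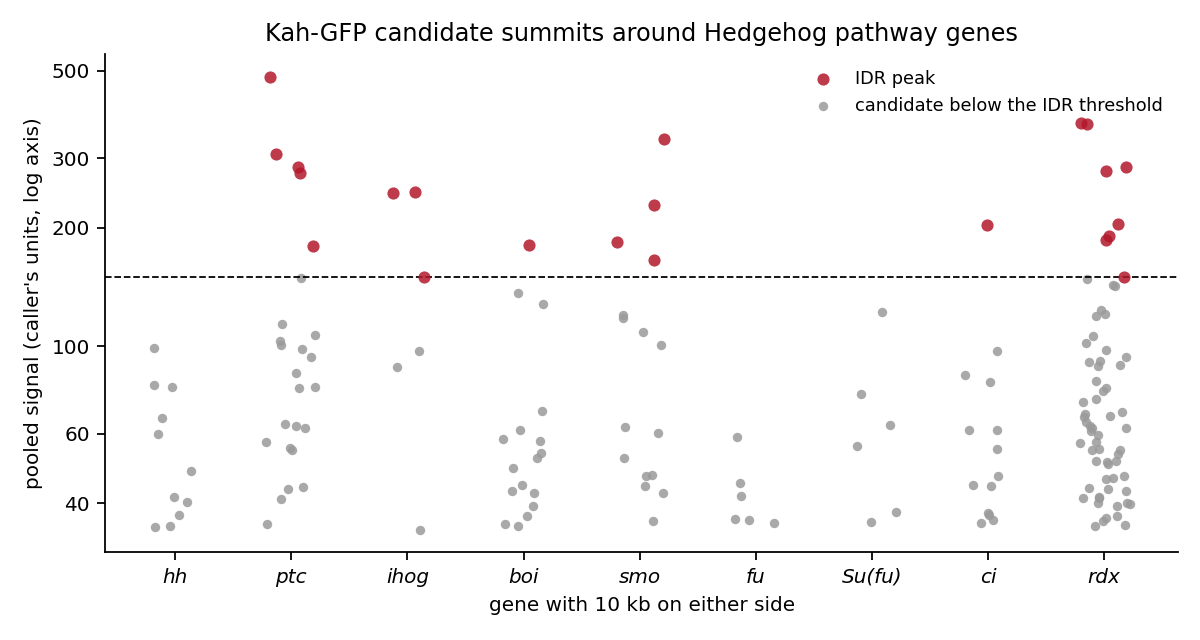
Pooled signal (log axis, the caller's units) of every candidate summit within 10000 bp of each of the 9 genes, with IDR peaks in red, other candidates in grey and the lowest IDR signal dashed. The points of ptc reach 483 and those of rdx 368, while all candidates of hh, fu and Su(fu) lie below the dashed line.

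The pathway's ligand, hh (FBgn0004644, chr3R:23128169-23141906, minus strand), encodes the secreted Hedgehog protein. Its region had 11 candidates and no IDR peak. The highest, at 23120056 in an intron of CenB1A, had a pooled signal of 98.9, with 31.0 in replicate 1 and 67.0 in replicate 2. Inside hh, the intronic candidate at 23134942 had 80.0, with 47.2 in replicate 1 and 33.5 in replicate 2. The next, at 23139225, also in an hh intron, had 78.9, with 59.3 in replicate 1 and no summit within 100 bp in replicate 2. All of these were below the lowest IDR signal of 149.7, and replicate 2 was the higher replicate for only the CenB1A candidate. A candidate of 60.1 lay 141 bp upstream of the hh start site, with 40.2 in replicate 1 and 21.5 in replicate 2. The highest value of the region stood at percentile 28.1 of the same value over all protein-coding genes. The nearest IDR summit to the hh start was 15232 bp away.

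The receptor gene ptc (FBgn0003892, chr2R:8649649-8665223, plus strand) encodes Patched and is itself a known target of the pathway. Its region had the strongest peak of the 9 genes and 5 IDR summits of 25 candidates. As many or more were found around 3.69% of protein-coding genes. The strongest summit, at 8644352, had a pooled signal of 483, with 220.2 in replicate 1 and 266 in replicate 2. It was intergenic and 5297 bp upstream of the ptc start, the nearest of any protein-coding gene. A second summit fell 1 bp upstream of that start, with a pooled signal of 276, 97.9 in replicate 1 and 163 in replicate 2. Both summits were higher in replicate 2.

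The other 3 IDR summits of the ptc region lay downstream of the gene, in introns of Acsl, which encodes an acyl-CoA synthetase. The summit at 8666072, 99 bp from an Acsl start, had a pooled signal of 180.3, with 76.2 in replicate 1 and 105 in replicate 2. The summit at 8667764 had 308, with 106 in replicate 1 and 204 in replicate 2. The summit at 8669237 had 285, with 163 in replicate 1 and 98.5 in replicate 2, and was the only one of the 5 that was higher in replicate 1. Their nearest starts were those of Acsl. No IDR summit fell inside ptc, although an intronic candidate at 8654440 came close to the IDR threshold. Its pooled signal was 149.4, with 89.4 in replicate 1 and 69.9 in replicate 2, and it was the highest value below the threshold in any of the 9 regions.

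**Figure D2:**
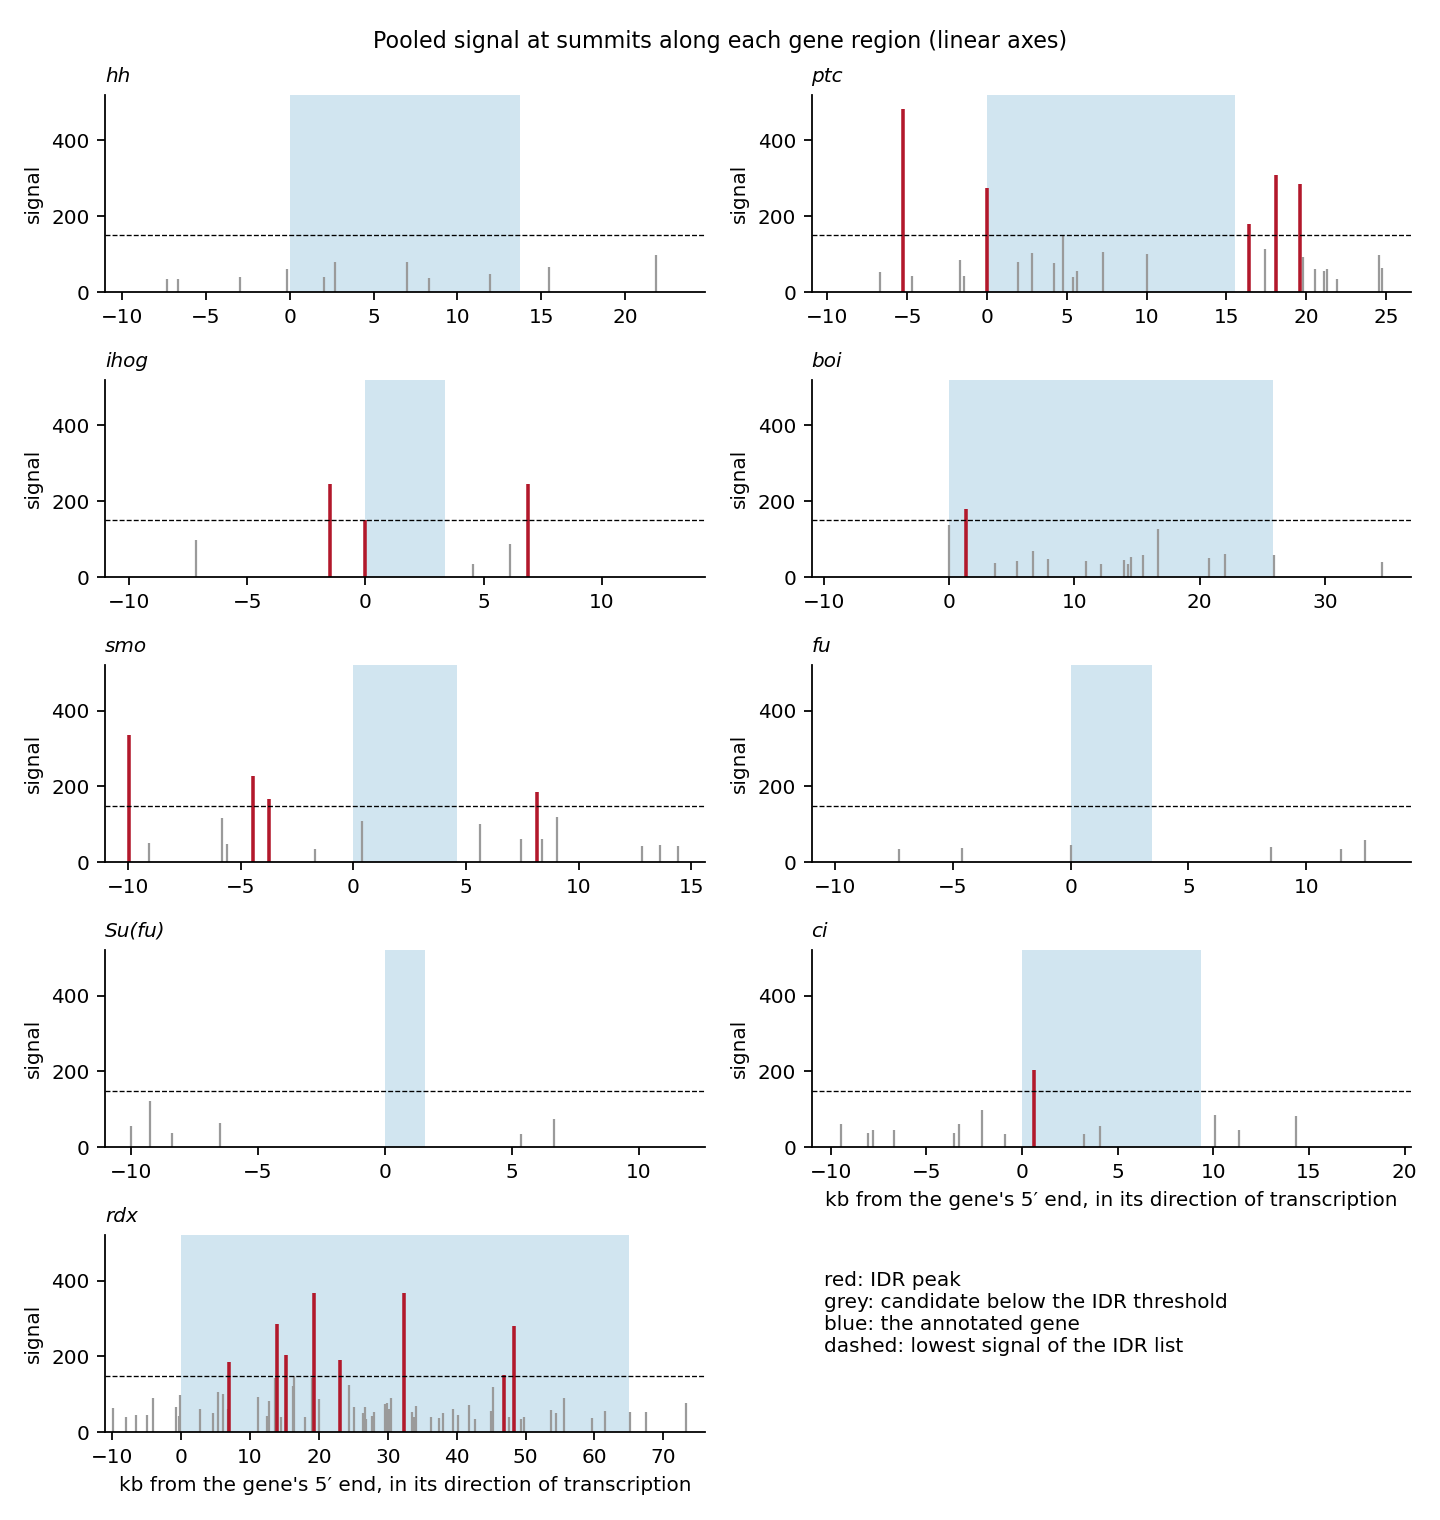
Pooled signal (linear axis, the caller's units) of each candidate summit by its distance in kb from the gene's 5′ end in the direction of transcription, with IDR peaks in red, other candidates in grey, the annotated gene shaded and the lowest IDR signal dashed. The red lines of smo all lie outside the gene, those of ptc lie at its start or outside it, and the 8 of rdx all lie inside it.

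The co-receptor genes ihog and boi encode membrane proteins with immunoglobulin and fibronectin domains that bind Hedgehog together with Patched. In ihog (FBgn0031872, chr2L:6945464-6948808, minus strand) an IDR summit fell on the annotated start, in the 5′ UTR, at 0 bp. Its pooled signal was 150.4, with 44.2 in replicate 1 and 102 in replicate 2, so that it was among the weakest IDR peaks, at rank 4072 of 4105. The log2 ratio of replicate 2 to replicate 1, after subtraction of its median over all IDR peaks, was 1.14. That was the highest of the 21 IDR summits with a match in both replicates and 2.00 times the SD over all IDR peaks.

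The other summits near ihog were stronger and closer to other genes. The summit at 6950309 was intergenic, 102 bp from the start of Gas41, a chromatin protein gene, and had a pooled signal of 246, with 145 in replicate 1 and 96.7 in replicate 2. The summit at 6941916 lay in an intron of CG18304 and had 245, with 116 in replicate 1 and 139 in replicate 2. The replicates were ordered differently at these summits.

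In boi (FBgn0040388, chrX:2444167-2470043, minus strand) the IDR summit, at 2468718, lay in an intron 1325 bp downstream of the main start. Its pooled signal was 181, with 113 in replicate 1 and no summit within 100 bp in replicate 2. It was the 1 IDR summit of the 22 with a missing match. The nearest summit in replicate 2 was 108 bp away, with a signal of 79.9 and rank 4246 there. A candidate 7 bp upstream of the boi start was below the IDR threshold, with 137 pooled, 53.6 in replicate 1 and 80.7 in replicate 2.

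The gene smo (FBgn0003444, chr2L:277582-282167, plus strand) encodes Smoothened, the membrane protein that passes the signal into the cell. The 4 IDR summits of its region of 16 candidates all lay outside it, and each was nearest to the start of another gene. As many or more were found around 8.15% of protein-coding genes. The strongest, at 267642 in an intron of Dus1 and 137 bp from a start of CG17075, had a pooled signal of 336, with 179 in replicate 1 and 152 in replicate 2. It lay 9940 bp upstream of smo, close to the edge of the region. The summit at 273120, the CAGGTG-rich window printed above, lay in the coding exon of mbm, a gene named for the mushroom body of the brain. Its pooled signal was 228, with 88.1 in replicate 1 and 145 in replicate 2.

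The remaining summits near smo were close to start sites. At 273863, in the 5′ UTR of CG11555, the pooled signal was 166, with 70.3 in replicate 1 and 96.0 in replicate 2. At 285745, 19 bp from a start of CG3625, it was 184, with 92.7 in replicate 1 and 107 in replicate 2. Of the 4 summits, only that near CG17075 was higher in replicate 1. The nearest IDR summit to the smo start was 3719 bp away. Inside smo there was 1 candidate, at 277965 and 383 bp from the start, in sequence also annotated as 5′ UTR of CG17078. Its pooled signal was 109, with 54.9 in replicate 1 and 56.4 in replicate 2.

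The kinase gene fu (FBgn0001079, chrX:18657755-18661204, plus strand) encodes Fused, which acts downstream of Smoothened. It had the weakest region of the 9, with 6 candidates and a highest pooled signal of 58.9, at percentile 16.5 of all genes. That candidate, at 18670265, had 40.6 in replicate 1 and 20.5 in replicate 2. A candidate 18 bp from the fu start had 45.0 pooled and 37.1 in replicate 2, and the candidate at 18666267 had 41.7 pooled and 27.6 in replicate 2. Neither had a summit within 100 bp in replicate 1. The nearest IDR summit to the fu start was 10262 bp away, just beyond the edge of the region.

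Su(fu) (FBgn0005355, chr3R:12689873-12691468, minus strand) encodes an inhibitor that binds Ci. Its region had 6 candidates, none inside the gene or within 500 bp of its start. The highest, at 12700699, lay in an intron of Past1 and had a pooled signal of 122, with 48.9 in replicate 1 and 67.9 in replicate 2. CAGGTG and ACAGGT were within 50 bp of that summit, as they were for 5.28% and 4.27% of all candidates below the IDR threshold. Weaker candidates around hh, ptc, ihog, smo and rdx also had CAGGTG that close. The candidate at 12684809, in an intron of kar, had 75.6, with 33.1 in replicate 1 and 42.1 in replicate 2. The candidate at 12697935, in the 5′ UTR of Past1, had 63.2, with 19.2 in replicate 1 and 40.6 in replicate 2. All 3 were higher in replicate 2 and below the IDR threshold. The nearest IDR summit to the Su(fu) start was 31278 bp away.

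The transcription factor gene ci (FBgn0004859, chr4:47710-57041, minus strand) encodes Ci, a zinc finger protein of the Gli family. It had 1 IDR summit of 14 candidates, at 56422 in the 5′ UTR, 91 bp upstream of the start of its canonical transcript and 619 bp downstream of its other start. The pooled signal was 203, with 96.1 in replicate 1 and 101 in replicate 2, so the replicates were close. Chromosome 4, which is small and mostly heterochromatic, held 16 IDR peaks of 258 candidates, and the ci peak ranked 10 among them. Their median signal was 223. The ACAAGT words printed above began 29 bp before and 29 bp after this summit on the plus strand.

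The gene rdx (FBgn0264493, chr3R:13967061-14032057, minus strand), also called roadkill, encodes the adaptor by which a Cullin 3 ubiquitin ligase marks Ci for degradation, and is itself a known target of the pathway. Its 8 IDR summits of 65 candidates all lay in its introns, over a span of 41349 bp with gaps of 1269 to 14603 bp. As many or more IDR summits were found around 0.508% of protein-coding genes, which is 71 genes. The length of rdx bears on this count. Of the 196 genes with a region at least as long, whose median count was 2.00, 14 had at least as many, or 7.14%.

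The 3 strongest rdx summits lay far from any start, and the first was close to equal in the replicates. The summit at 13999733, 16370 bp from the nearest rdx start, had a pooled signal of 368, with 186 in replicate 1 and 187 in replicate 2. The summit at 14012754, 13208 bp from the nearest start, had 367, with 164 in replicate 1 and 201 in replicate 2. The summit at 14018165 had 286, with 175 in replicate 1 and 108 in replicate 2. Of these 3, the last differed most between the replicates, by a centred log2 ratio of -0.77.

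Near the start sites of rdx, the summit at 13983687 had a pooled signal of 279, with 151 in replicate 1 and 135 in replicate 2. It lay 324 bp upstream of the canonical start and was the only rdx IDR summit within 500 bp of an rdx start. The summit at 14025036, 926 bp from a second start, had 186, with 64.9 in replicate 1 and 128 in replicate 2. The summit at 13985130 had 150.0, with 107 in replicate 1 and 47.0 in replicate 2. It was the lowest IDR value of the 22, at rank 4095, and with a centred log2 ratio of -1.25 it lay 2.18 SD below the median. The summits at 14016896 and 14009038 were intermediate. The summit at 14016896 had 205, with 104 in replicate 1 and 100.2 in replicate 2. The summit at 14009038 had 191, with 105 in replicate 1 and 84.7 in replicate 2.

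**Figure D3:**
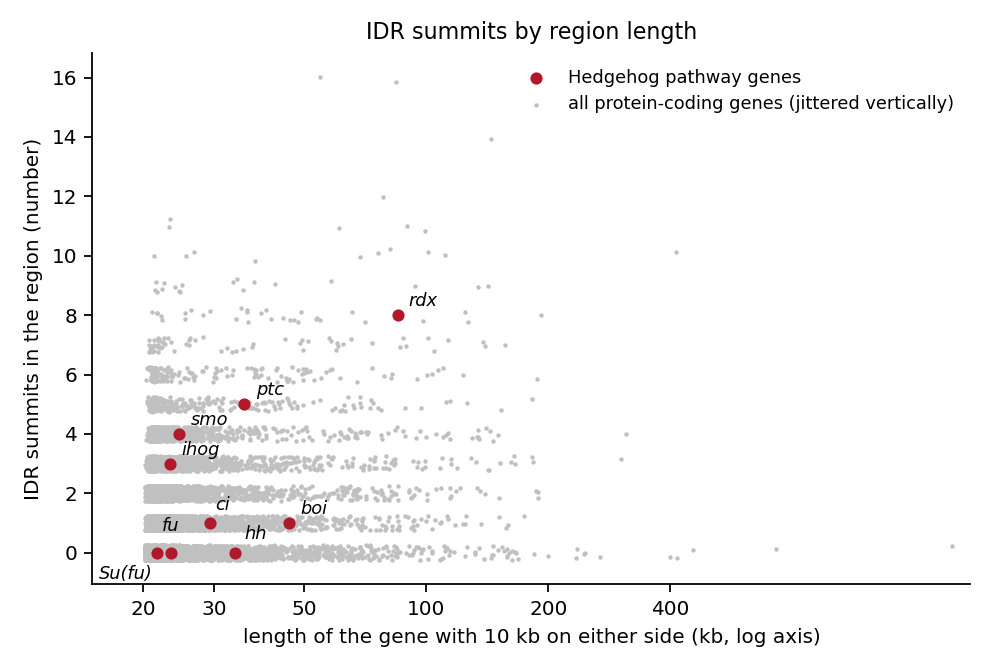
Number of IDR summits in each gene's region against the length of that region (kb, log axis), with the 9 Hedgehog pathway genes in red and all protein-coding genes in grey, spread vertically to separate points. Around rdx there are 8 summits in a region longer than most, ptc and smo have 5 and 4, and hh, fu and Su(fu) sit on 0.

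The replicates gave these summits about as often as other IDR peaks. A summit within 100 bp was present in both replicate lists for 21 of the 22 (95.5%), against 95.1% of all IDR peaks. Among the 4105 highest candidates of both replicates were 17 (77.3%), against 70.2%. IDR peaks were chosen by agreement between these same replicates, so the shares are no independent test of the peaks. Of the 144 candidates below the threshold, 55 (38.2%) were matched in both replicates, against 37.6% of all such candidates, while 34 were matched in replicate 1 only, 43 in replicate 2 only and 12 in neither.

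Over all IDR peaks, log2 of the replicate 2 signal over the replicate 1 signal had a median of 0.07 and an SD of 0.57. Centred on that median, it ran from -1.25 to 1.14 over the 21 summits, with a median of 0.14 and an SD of 0.62. It was above 0 at 11 summits and below 0 at 10, so neither replicate was higher throughout. It was within 1 SD at 12 of 21, against 73.4% of all IDR peaks.

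**Figure D4:**
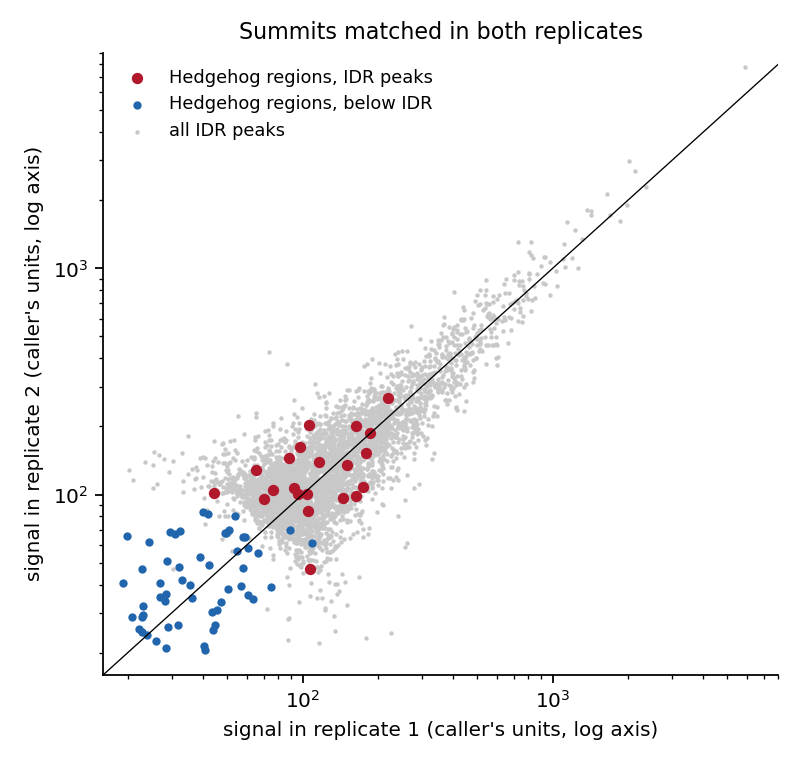
Signal in replicate 2 against signal in replicate 1 (both log axes, the caller's units) for the 21 IDR summits (red) and 55 weaker candidates (blue) of the Hedgehog regions found in both replicates, and for all matched IDR peaks (grey), with the line of equal signal. The red points lie within the lower part of the grey cloud, on both sides of the line.

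Signals at the 22 summits were ordinary for the list. Their median pooled signal was 237, against 233 over all IDR peaks, and 11 of 22 were at or above the median of the whole list. The highest, 483, was far below the 13674 of the strongest IDR peak. A further 43 candidates of the 9 regions lay between the IDR threshold and 50% of it. The share of all candidates in that range was not taken, so this count cannot be called high or low.

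By annotation, 15 of the 22 summits (68.2%) were intronic, against 47.6% of all IDR peaks, and 3 (13.6%) were intergenic, against 29.7%. The 5′ UTR held 3 (13.6%, against 16.3%) and coding exons 1 (4.55%, against 2.73%). Within 500 bp of a protein-coding start were 9 (40.9%), against 50.5%, and more than 5000 bp away were 6 (27.3%), against 15.1%. The median distance to the nearest protein-coding start was 912 bp, against 478 bp. The 8 intronic summits of rdx carry much of this, including 5 of the 6 at more than 5000 bp. The regions were also chosen around genes, while the whole list covers the genome, so the intronic and intergenic shares are not compared like for like. The start nearest to the summit belonged to one of the 9 genes for 13 summits and to another gene for 9, so a peak in these regions need not belong to the pathway gene.

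GAGAGA, the word bound by the fly's GAGA factor, was within 50 bp of 6 of the 22 summits (27.3%), against 7.87% of all IDR peaks and 5.65% of weaker candidates. The 6 were the summit at the ptc start, those at 8666072 and 8667764 in introns of Acsl, the mbm summit near smo and both rdx summits closest to rdx starts. The Acsl and mbm summits were nearest to the starts of those genes, which are not among the 9. The 6 summits come from 3 of the 9 regions, so they are not independent of each other. The Snail-type word CAGGTG was near 2 summits (9.09%, against 9.87% of all IDR peaks and 5.28% of weaker candidates), those in boi and mbm. ACAGGT, which overlaps CAGGTG in ACAGGTG, was near the same 2 summits (9.09%, against 9.48% and 4.27%). ACAAGT was near 2 (9.09%, against 10.8% and 6.25%), in ci and rdx.

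For the other words searched on both strands, TATTTA was near 3 summits (13.6%, against 23.9% of all IDR peaks), TAATTA near 3 (13.6%, against 8.28%) and AGATAA near 1 (4.55%, against 6.85%). CACTTG, whose other strand CAAGTG overlaps ACAAGT, was near 3 (13.6%, against 10.5%). CACGTG and ATCGAT were near 0 of the 22, against 1.68% and 4.17% of all IDR peaks. GC content within 50 bp of the summits had a median of 36.2%, against 39.6%, and ran from 14.9% at the summit beside Gas41 to 61.4% at the CG3625 start.

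The Ci binding word GACCACCCA was present 8 times in the 9 regions, 5 times in that of ptc, 2 times in that of hh and once in that of smo. Summed over the regions this is 0.248 per 10 kb, against 0.0900 over the genome, and most of the sum comes from ptc. The regions of ihog, boi, fu, Su(fu), ci and rdx had no such word. The word was within 50 bp of 0 of the 22 IDR summits, also with 1 mismatch allowed, against 0.0244% of all IDR peaks and 0.901% with the mismatch. Relative to the ptc start, the words lay at -5126, -754, -697, -631 and 7605 bp, negative values being upstream. The first of these was 171 bp from the strongest ptc summit, and the 3 nearest to the start were 630 to 753 bp from an IDR summit. In smo, the word printed above covered the summit of the weaker candidate at 277965. In hh, the words lay 245 and 85 bp from the nearest candidates, both weaker than the IDR threshold. A match of letters does not show that Ci was bound there.

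Other genes of the pathway were taken from 3 lists, and their highest peaks often lay nearest to the start of another gene. Of 8 genes for release and spread of the ligand, 7 had an IDR summit within 10000 bp, against 57.9% of all protein-coding genes, and 3 within 500 bp of their start, against 17.0%. Their median highest signal was 257, against 204 over all genes. The highest was 509 near sotv, a heparan sulfate polymerase gene, 13 bp from the start of CysRS. Near dlp, a glypican gene, it was 405, in an intron with a start of CG43121 nearest at 6268 bp. Next came 271 near rasp, which encodes the enzyme that adds palmitate to Hedgehog, 234 bp from a start of CG32280. Near shf, which encodes a secreted protein of the Hedgehog gradient, it was 257, 163 bp from a start of Coq7. The same signal, 257, was found near ttv, another heparan sulfate polymerase gene, 1516 bp from a start of LamC. Only disp, whose product releases Hedgehog, had none.

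Of 11 transduction genes, 10 had an IDR summit within 10000 bp, against 57.9% of all genes, and 5 at their start, against 17.0%. Their median highest signal was 624, against 204 over all genes. That near cos, which encodes the kinesin-like scaffold of Ci, was 1773, with 912 in replicate 1 and 860.5 in replicate 2, and lay 23 bp from a start of Glo1. That near Gprk2, a kinase gene, was 1487, with 765 in replicate 1 and 728 in replicate 2, and lay 77 bp from a start of PNPase. The casein kinase gene CkIalpha had 836, in an intron, with a start of Tis11 nearest at 6058 bp. The histone acetyltransferase gene nej had 668, 662 bp from its own start. SkpA and Roc1a shared a single summit of 537, 215 bp from a start of Hmt4-20. Cul1, the scaffold of the ligase that trims Ci, had none. The highest summits of this list were stronger than any near the 9 core genes.

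Of 10 regulators of hh and responding genes, 4 had an IDR summit within 10000 bp, against 57.9% of all genes, and 1 at its start, against 17.0%. Their median highest signal was 116, against 204 over all genes. The BMP ligand gene dpp had 282 in an intron, with 147 in replicate 1 and 144 in replicate 2. Near kn the summit of 218 lay 66 bp from a start of BEAF-32, and near ara the summit of 181 lay 53 bp from a start of sowah. At sr, a summit of 203 had 109 in replicate 1 and no match in replicate 2. The homeodomain gene en, a regulator of hh, had a highest signal of 50.4, and wg, the Wnt ligand gene maintained by Hedgehog, 74.8.

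**Figure D5:**
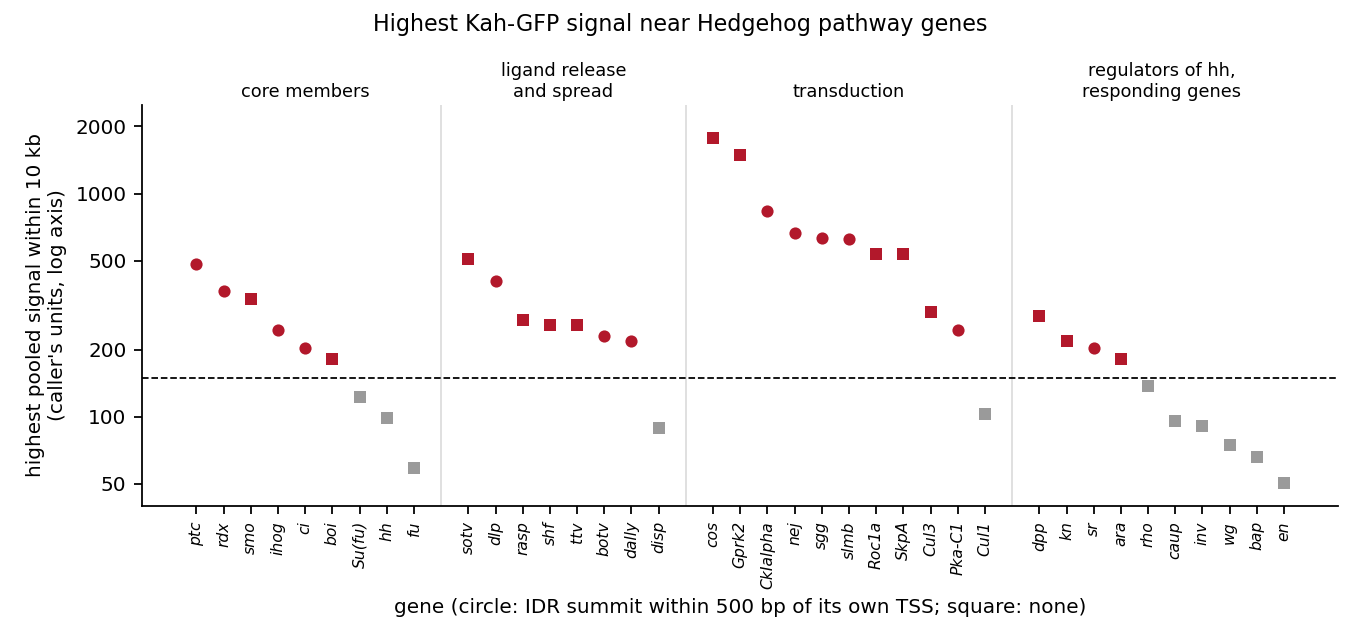
Highest pooled signal within 10000 bp (log axis, the caller's units) of the 9 core genes and of the genes of the 3 other lists, in red where it is an IDR peak and grey where it is not, as circles where the gene has an IDR summit within 500 bp of its own start and squares where it has none. Points of the transduction list reach 1773 and most points of the regulators of hh and responding genes are grey.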

How the data were processed

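ChIP-seq of Kah-GFP embryos (2 biological replicates, 1 group) was analysed from deposited peak lists in narrowPeak format, on build dm6 per the labels. Per the deposited file listing, 1 candidate list per replicate and 1 pooled list were called against 1 shared control alignment, and the IDR list derives from these 3. The signal in column 7 is the authors' value, scaling not stated. The deposited −log10 q is capped and was not used. Aligner and peak caller: not given in the sources used here. Read depth is unknown. Chromatin was sonicated to 200 to 800 bp, per the labels.

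Genes came from Ensembl release 115 and sequence from the RefSeq Release 6 assembly, the assembly of dm6, on which 0 peaks ran past a chromosome end. A start site was that of any protein-coding transcript. Features followed the priority 5′ UTR, coding exon, 3′ UTR, non-coding exon, intron, intergenic. The sequence at the boi summit is not reported here. Summits matched within 100 bp, and words were sought within 50 bp on both strands. Computation used Python 3.11.15, pandas 2.3.3 and numpy 2.4.6, tried on simulated data. No test was run, since there was 1 group.

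All 9 genes, every IDR summit near them, the 3 highest candidates of genes without one, the candidates just beside the threshold, and up to 4 of each other list by IDR signal were to be named. SkpA, Roc1a, ttv, wg, en, disp, Cul1 and candidates inside or at the start of boi, smo and hh were named after their values were seen. The members and lists were chosen with earlier results of these data known. Alternatives were other flanks, promoter widths, matching distances, word windows, a stricter threshold and each replicate alone.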

Additional observations from a re-analysis of the deposited data

How the results depend on the processing

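Of the 9 core genes, 6 had an IDR summit within 10000 bp, 6 within 5000 bp, 8 within 20000 bp and 4 inside the gene. Under a stricter threshold, the upper 50% of IDR peaks by signal, the number was 4. With the highest candidates of a single replicate it was 5 without replicate 1 and 6 without replicate 2. The 22 summits became 11 inside the genes, 13 where the nearest start had to be the gene's own and 11 under the stricter threshold. They numbered 24 without replicate 1 and 25 without replicate 2. The 166 candidates became 87 inside the genes, 177 without replicate 1 and 161 without replicate 2. The 4 genes with an IDR summit at the start became 2 under the stricter threshold, 4 without replicate 1 and 3 without replicate 2. CAGGTG, near 2 summits within 50 bp, was near 1 within 25 bp and 4 within 100 bp. Of the 29 other genes, 21 had an IDR summit within 10000 bp, 9 inside the gene and 22 with either replicate alone. The median percentile of the highest signal was 53.7, and 50.9 without replicate 1 or 57.1 without replicate 2.

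Of 63 alternatives for single genes, 47 stayed within 1.5 times. These include counts of 0 at hh, fu and Su(fu) that stayed 0. Several of those could not change, since narrower or stricter settings only remove peaks, so the 47 overstate how stable the counts are. The IDR summit of boi was absent without replicate 1, and those of boi and ci were absent under the stricter threshold. The count at ptc was 8 without replicate 2, while under the stricter threshold it was 4 at rdx and 1 at smo. With 20000 bp on either side, hh had 2 IDR summits and fu 3, so their lack of peaks depended on the flank. No paired analysis was possible because the replicates form 1 group. The candidates around hh, fu and Su(fu) were below the IDR threshold, and with depth unknown they are not shown to be unbound. The labels' mention of an input control could not be resolved from the lists.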

Other observations

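The intervals of the deposited peaks were of unequal kind. Of the 22 IDR summits near the 9 genes, 12 (54.5%) lay in an interval of exactly 424 bp, as did 45.9% of all IDR peaks, and in all 12 the summit was at its centre. The other 10 intervals were 161 to 309 bp wide. The 12 had a median pooled signal of 189 and the other 10 of 297. Over all IDR peaks the medians were 183 and 336. The summits with CAGGTG within 50 bp, in boi and mbm, lay in the narrower kind. The share of CAGGTG in each kind of interval was not taken over all IDR peaks. A link between the word and the kind of interval was therefore not tested.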
